A study of Homo sapiens with 12 samples.

Results

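The messenger RNAs of 10 genes of prostaglandin synthesis, breakdown, uptake and reception were followed in the human intestinal epithelial cell line NCM460. They were chosen by symbol from the 58735 genes of the deposited table. They are the phospholipase PLA2G4A, the cyclooxygenases PTGS1 and PTGS2, the prostaglandin E synthases PTGES, PTGES2 and PTGES3, the dehydrogenase HPGD, the transporter SLCO2A1, and the receptors PTGER2 and PTGER4. The study asked how 5-OH-TMT, a quaternary ammonium relative of bufotenine that the labels call bufotenidine, acts on inflamed intestinal epithelium through the mitochondrial protease HTRA2. RNA was sequenced from 12 libraries, 3 in each of 4 groups. The first group was wild-type cells in medium alone and the second was wild-type cells given TNF-α, an inflammatory cytokine. The third was wild-type cells given TNF-α and 5-OH-TMT, and the fourth was cells labelled HTRA2 knockdown and given TNF-α. So 3 of the 4 groups carried TNF-α, and 5-OH-TMT and the knockdown were each read against TNF-α alone. The study picked a noncytotoxic concentration of 5-OH-TMT for its work on mechanism in these cells, but the labels tie no dose of it, dose of TNF-α or time of sampling to these libraries. The knockdown was made with small interfering RNA. The paper reports its knockdown sequencing against a control siRNA, but the labels name no control RNA for the TNF-α libraries. Whether those libraries were transfected is not stated, so transfection and loss of HTRA2 may differ together in the comparisons of the knockdown. It is also not stated whether the 3 knockdown libraries share 1 siRNA or carry 1 each of several. Nothing says that the libraries of a group came from separate cultures, so the p-values measure the spread between these libraries, which may be technical.

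Prostaglandins are lipid mediators made from arachidonic acid. Phospholipases such as PLA2G4A release the fatty acid from membranes, a cyclooxygenase turns it into prostaglandin H2, and terminal synthases turn that into the separate prostanoids, prostaglandin E2 among them. PTGS1 is usually present at a steady level, while PTGS2 is the form that inflammatory signals induce, from an mRNA with AU-rich elements that make it short-lived. PTGES is the microsomal synthase that is often induced along with PTGS2, PTGES2 is a second membrane-bound form, and PTGES3 is a cytosolic form better known as p23, a co-chaperone of HSP90. Prostaglandin E2 acts on PTGER2 and PTGER4, which raise cyclic AMP. SLCO2A1 carries it into cells, where HPGD begins its inactivation. In the colon this mediator is known for its part in repair of the epithelium, in inflammation and in tumour growth.

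Each library held between 31008429 and 37624399 reads on genes, and whole reads could be recovered from the deposited FPKM (fragments scaled to gene length and library). HTRA2 was at 14.5 ± 0.77 FPKM (SD, n = 3) with TNF-α and at 7.28 ± 0.14 after knockdown, a log2 fold change of -0.98 (adjusted p = 2.8e-05, limma). TNFAIP3, a target of NF-κB, was at 1.22 FPKM in medium, 28.3 under TNF-α, 30.3 ± 8.84 with 5-OH-TMT and 57.3 ± 2.25 after knockdown. The knockdown thus stood above TNF-α alone in this gene (log2 fold change 1.02, adjusted p = 0.00070, limma). Of 11 markers of colon epithelium, EPCAM, CDH1, KRT8, KRT18 and KRT19 were at a mean of at least 1 FPKM. The rest of that list, KRT20, VIL1, CDX1, CDX2, LGALS4 and CDH17, had at most 17 reads in any library. CDX2 was at 0 in every library, and VIL1 and CDX1 had reads in 1 library each. The summed level of the 6 fibroblast markers was 1.018 to 1.13 FPKM in medium, 1.001 to 1.32 with TNF-α, 1.15 to 1.46 with 5-OH-TMT and 2.63 to 3.24 after knockdown, mostly as COL1A1, with DCN at 0 in every library. The 6 leukocyte markers summed to 0.337 to 0.589 FPKM in medium, 0.267 to 0.329 with TNF-α, 0.375 to 0.538 with 5-OH-TMT and 0.649 to 0.769 after knockdown, mostly as CSF1R, with PTPRC in 3 of 12 libraries and CD3E at 0. The 4 endothelial markers summed to 0.491 to 0.597 FPKM in medium, 1.42 to 1.57 with TNF-α, 1.77 to 2.01 with 5-OH-TMT and 2.21 to 3.62 after knockdown, mostly as CDH5, with KDR at 0. So the leukocyte and endothelial sums of 5-OH-TMT also lay above those of TNF-α. The part of these markers in the results below was not tested. Mitochondrial transcripts took 2.95% of the reads of knockdown replicate 2 and 3.69% to 4.68% of those of the other libraries.

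The sequences just upstream of 3 members are shown: the cyclooxygenase that fell with the knockdown, the inducible cyclooxygenase beside it, and the most abundant synthase. Those of PTGES2 and PTGES3, which also passed a test below, are not printed. Each printed stretch runs from 250 to 11 bases before the start given by RefSeq (GRCh38.p14). It is written 5′ to 3′ on the strand of the gene, with matches to the motifs searched in capitals.
PTGS1 (chr9:122370283-122370522, plus strand): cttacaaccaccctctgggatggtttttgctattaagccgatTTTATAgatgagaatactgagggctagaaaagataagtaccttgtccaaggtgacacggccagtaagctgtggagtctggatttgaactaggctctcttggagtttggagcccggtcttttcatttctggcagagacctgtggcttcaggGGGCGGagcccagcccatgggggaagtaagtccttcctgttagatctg
PTGS2 (chr1:186680434-186680673, minus strand): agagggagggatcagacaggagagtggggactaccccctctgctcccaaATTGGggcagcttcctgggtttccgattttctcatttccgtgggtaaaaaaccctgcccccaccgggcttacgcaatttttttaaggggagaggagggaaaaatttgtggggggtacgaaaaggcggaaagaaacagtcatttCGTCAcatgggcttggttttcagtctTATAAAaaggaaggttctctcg
PTGES (chr9:129753053-129753292, minus strand): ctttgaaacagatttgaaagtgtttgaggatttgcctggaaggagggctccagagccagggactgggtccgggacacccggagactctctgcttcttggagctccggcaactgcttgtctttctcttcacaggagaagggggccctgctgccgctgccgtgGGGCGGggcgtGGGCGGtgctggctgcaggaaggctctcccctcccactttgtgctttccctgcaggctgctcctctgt
The 6 motifs were searched on both strands and do not overlap in the windows printed. They include the TATA box with the letters TATAAA, the GC box with GGGCGG, the CCAAT box, and the E-box with CACGTG. The cyclic AMP response element was searched by its part CGTCA. The κB motif was searched as GGGRNNYYCC, where R is A or G, Y is C or T, and N is any base. In PTGS2, the TATA box begins 32 bases before the start and the cyclic AMP part 58 bases before it, with a CCAAT box read on the other strand (ATTGG) at 201. In PTGS1, a GC box begins at 58, and the TATA box is read on the other strand (TTTATA) at 208. PTGES holds 2 GC boxes, at 89 and 78, and no TATA box. Among 35116 windows of the same 240 bases before the genes of the RefSeq table, 10.6% hold the TATA box, 41.4% the GC box, 31.4% the CCAAT box, 20.5% the cyclic AMP part, 6.01% the E-box and 9.56% the κB motif. None of the 3 windows printed holds the E-box or the κB motif as spelled here. The PTGS2 window does hold gggactaccc, which that κB spelling does not match, so the search does not show that a κB site is absent. Of the windows not printed, those of PTGES3, PTGER2 and PTGER4 each hold a κB match, at 121, 155 and 244 bases before the start. These are matches of letters in a window and not measured sites, since no binding was measured here.

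The 10 genes spanned more than 4 orders of magnitude in level, and their order was nearly the same in all groups. PTGES was at a mean of 405 FPKM over the 12 libraries, the 76th highest of all genes in the table. PTGES3 followed at 145 FPKM, PTGES2 at 70.9 and PTGS1 at 10.5, and these 4 did not overlap one another in any group. The receptors PTGER2 at 1.17 FPKM and PTGER4 at 0.921 came next. They overlapped with TNF-α alone and in the knockdown, while PTGER2 was above PTGER4 in every library of medium and of 5-OH-TMT. PLA2G4A at 0.468 FPKM and PTGS2 at 0.338 overlapped each other in all 4 groups. HPGD at 0.0432 and SLCO2A1 at 0.0122 FPKM stood last, and they overlapped in all groups but 5-OH-TMT. The mRNAs of the 3 terminal synthases were thus each at over 50 FPKM, and those of PLA2G4A, PTGS2, both receptors and both genes of removal at under 2 FPKM in every library.

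**Figure D1:**
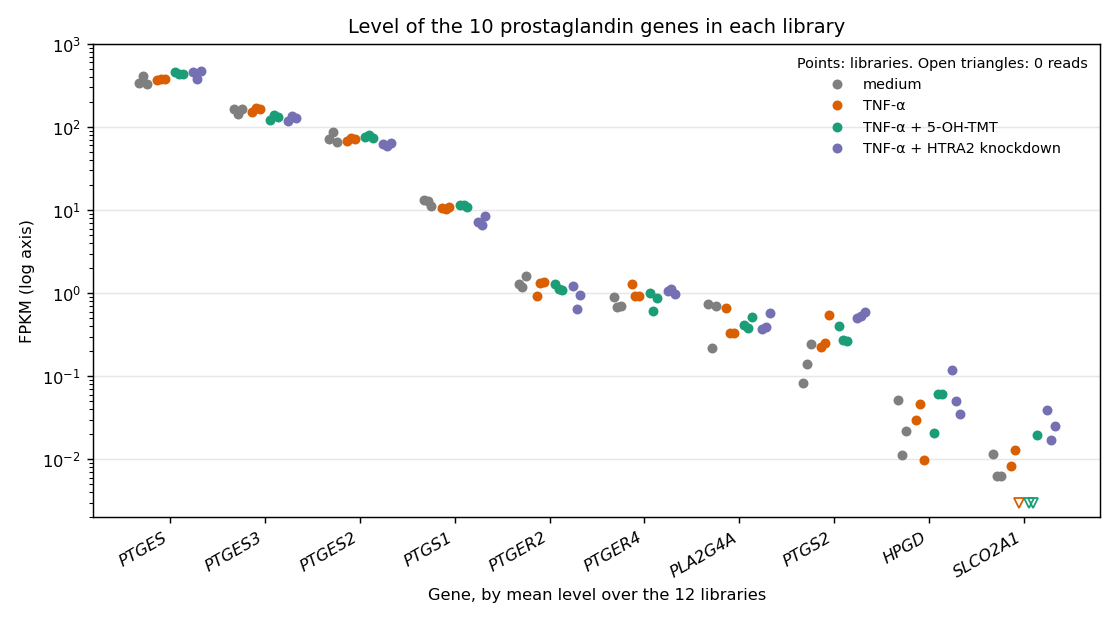
FPKM on a log axis of the 10 genes, ordered by mean level, with 1 point for each of the 3 libraries of 4 groups and open triangles for libraries without reads. PTGES sits between 334 and 474 FPKM in every library, PTGS2 between 0.0822 and 0.588, and only SLCO2A1 has libraries at 0.

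Of the 10 genes, 8 passed the filter of a mean of at least 0.1 FPKM that 18079 genes passed, and HPGD and SLCO2A1 lay under it. At an adjusted p under 0.05 in limma, TNF-α moved 0 of the 8 and 4.1% of all genes tested. 5-OH-TMT with TNF-α moved 0 of the 8, against 0.0387% of all genes. The knockdown lowered PTGS1 and PTGES3 against TNF-α and raised none, while 17.4% of all genes were called and 8.08% were called lower. The knockdown lay below 5-OH-TMT, both with TNF-α, in PTGS1 and PTGES2, while 15.3% of all genes were called and 7.43% lower. At an unadjusted p under 0.05, 2 of the 8 passed in each of the 4 comparisons, and voom on the recovered reads also called 0 under TNF-α and 0 with 5-OH-TMT. Those shares of all genes were 14.8% for TNF-α, 20.1% for 5-OH-TMT, 31.1% for the knockdown against TNF-α and 29.7% for the knockdown against 5-OH-TMT. The study defined a changed gene by a fold of at least 2 and an unadjusted p of at most 0.05. On the fitted log2(FPKM + 0.1) scale none of the 8 met this rule, which held for 2.73%, 1.5%, 4.23% and 3.19% of all genes in the same order. PTGS2 with TNF-α, at an unadjusted p of 0.034, had a fitted fold of 1.69 and a ratio of mean FPKM of 2.18. The median log2 fold change of the 8 was -0.014 for TNF-α, 0.012 for 5-OH-TMT, -0.081 for the knockdown against TNF-α and -0.030 for it against 5-OH-TMT, where all genes had medians within 0.0104 of 0. The TNF-α libraries serve in 3 of these comparisons, and the knockdown and 5-OH-TMT libraries in 2 each.

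**Figure D2:**
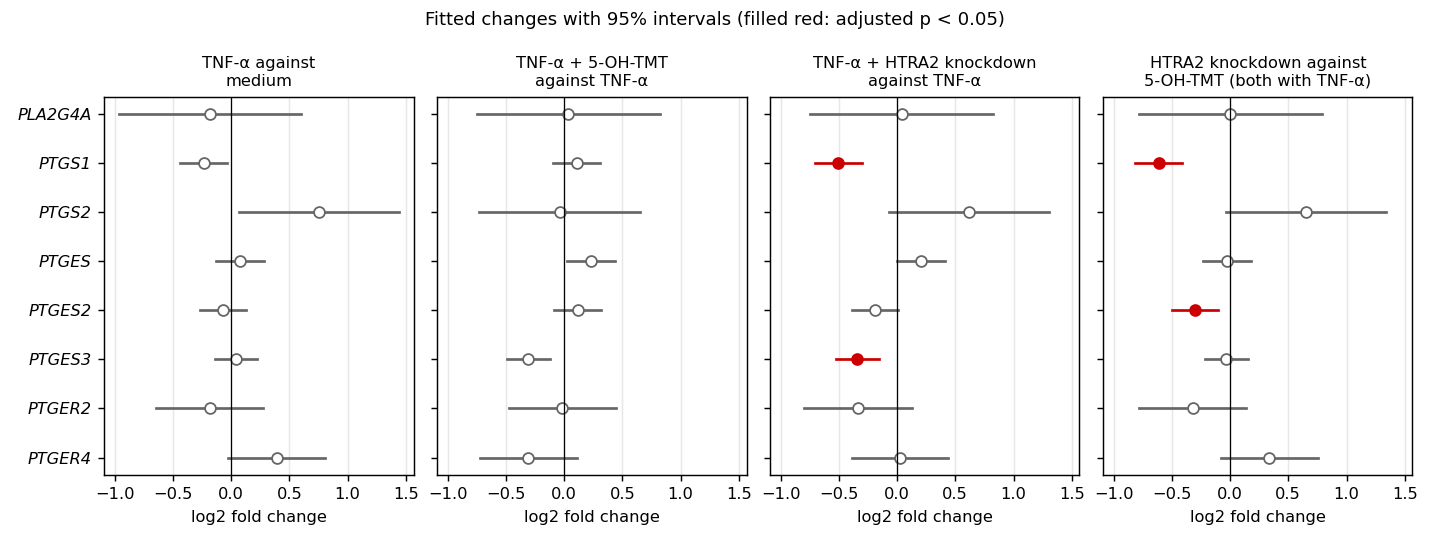
Fitted log2 fold change with its 95% interval for the 8 genes tested in each of the 4 comparisons, in red and filled where the adjusted p is under 0.05. PTGS1 is lower in the knockdown in both comparisons (-0.51 and -0.61), PTGES3 against TNF-α (-0.34) and PTGES2 against 5-OH-TMT (-0.30).

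PLA2G4A, the cytosolic phospholipase that frees arachidonic acid (chr1:186828953-186988981, hg38, plus strand), was low and scattered. It had 73, 20 and 65 reads in medium, 69, 30 and 36 under TNF-α, 42, 39 and 54 with 5-OH-TMT, and 38, 41 and 60 after knockdown. Every group overlapped every other. The log2 fold change of TNF-α against medium was -0.18 with a 95% interval from -0.97 to 0.60 (adjusted p = 0.88, limma). Changes in either direction within that interval remain compatible with these libraries. The other 3 comparisons gave log2 fold changes of 0.037 for 5-OH-TMT, 0.040 for the knockdown and 0.0030 for the knockdown against 5-OH-TMT, with intervals as wide.

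PTGS1, the steadily expressed cyclooxygenase (chr9:122370530-122395703, plus strand), fell with the knockdown. It was at 13.1, 13.0 and 11.3 FPKM in medium, 10.6, 10.2 and 10.9 under TNF-α, 11.6, 11.7 and 10.9 with 5-OH-TMT, and 7.16, 6.63 and 8.56 after knockdown, from 1385 to 2624 reads in each library. All 3 knockdown libraries were below all 9 others. Groups that do not overlap made up 34% of all genes in the knockdown against TNF-α and 4 of the 8 members (PTGS1, PTGES, PTGES2 and PTGES3). The mean of 7.45 ± 0.998 FPKM (SD, n = 3) in the knockdown stood against 10.6 ± 0.35 under TNF-α, a log2 fold change of -0.51 with an SE of 0.093 (adjusted p = 0.0030, limma). Against 11.4 ± 0.39 with 5-OH-TMT the log2 fold change was -0.61 (adjusted p = 0.0015). In these bulk libraries, fewer cells that express a gene and less RNA per cell cannot be told apart. Both calls stayed past the threshold in each alternative fit and without each library in turn, with adjusted p from 0.00033 to 0.028 and from 0.00012 to 0.020 over the alternatives.

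PTGS1 had a smaller difference with TNF-α alone. The 3 TNF-α libraries lay below the 3 of medium, with a log2 fold change of -0.24 (95% interval -0.44 to -0.03, adjusted p = 0.24, limma; adjusted p 0.12 to 0.35 over the alternatives), which does not pass. Non-overlap in either direction held for 19.8% of all genes in that comparison, and of the 8 members for PTGS1 and PTGER4. The exact two-sided permutation test gave p = 0.1 there, the smallest that 3 libraries against 3 allow. The 5-OH-TMT libraries were all above those of TNF-α alone, although the lowest at 10.95 FPKM exceeded the highest of TNF-α, 10.92, by little. The fitted difference was 0.11 on the log2 scale (adjusted p = 0.53, limma). Separation in either direction held for 31.8% of all genes and for 3 of the 8 members, PTGS1, PTGES and PTGES3.

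PTGS2, the inducible cyclooxygenase (chr1:186671791-186680427, minus strand), was low in all groups, also with TNF-α. The recovered reads were 15, 24 and 42 in medium, 43, 41 and 108 under TNF-α, 74, 51 and 50 with 5-OH-TMT, and 95, 102 and 113 after knockdown. In FPKM these were 0.0822, 0.142 and 0.244 in medium, 0.222, 0.250 and 0.550 under TNF-α, 0.399, 0.272 and 0.264 with 5-OH-TMT, and 0.500, 0.537 and 0.588 after knockdown. TNF-α replicate 3 stood apart from its group and inside the range of the knockdown, and TNF-α overlapped medium. The mean with TNF-α was 2.18 times that of medium, and the fitted log2 fold change, on the log2(FPKM + 0.1) scale that understates low genes, was 0.76 (95% interval 0.07 to 1.45, adjusted p = 0.27, limma). It was 1.14 by voom on the reads (adjusted p = 0.17) and 0.44 without TNF-α replicate 3 (adjusted p = 0.63).

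For PTGS2, 5-OH-TMT gave no difference from TNF-α that could be detected, with a fitted value of -0.038 and an interval from -0.73 to 0.65 (adjusted p = 0.96, limma). Without TNF-α replicate 3 that value was 0.28 (adjusted p = 0.68). The knockdown libraries were all above those of 5-OH-TMT and above the other 2 of TNF-α. The log2 fold change was 0.65 against 5-OH-TMT (interval -0.04 to 1.34, adjusted p = 0.19) and 0.61 against TNF-α (interval -0.07 to 1.30, adjusted p = 0.21), and neither passed. By voom the adjusted p values were 0.067 and 0.094. Groups that do not overlap in that first comparison made up 35.8% of all genes, and 3 of the 8 members, PTGS1, PTGS2 and PTGES2.

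PTGS1 exceeded PTGS2 by the least after knockdown. The ratio of PTGS1 to PTGS2 FPKM was 99.0 ± 56.7 (SD, n = 3) in medium, 36.1 ± 14.4 under TNF-α, 37.8 ± 7.62 with 5-OH-TMT and 13.7 ± 1.21 after knockdown. The knockdown libraries ran from 12.4 to 14.5, below the lowest of TNF-α at 19.9 and of 5-OH-TMT at 29.005, each with an exact permutation p of 0.1, the smallest possible. TNF-α and medium met, with a lowest of 46.5 in medium and a highest of 47.4 under TNF-α (exact permutation p = 0.2). PTGS1 stayed the more abundant cyclooxygenase mRNA per length in all 12 libraries.

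**Figure D3:**
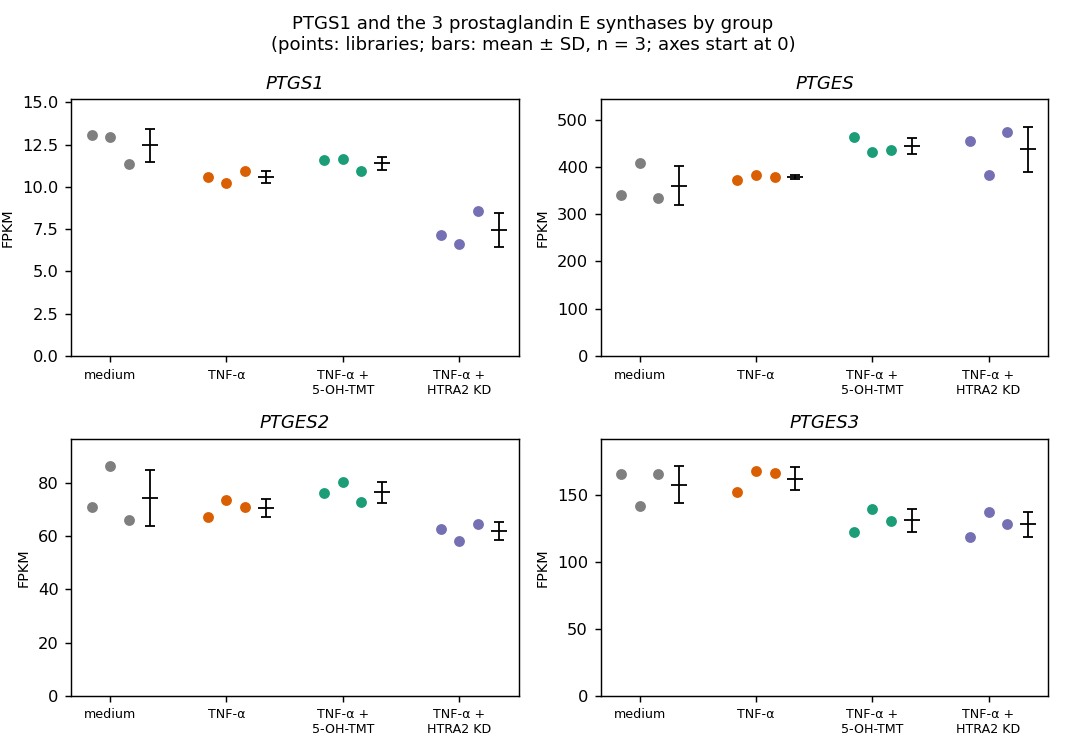
FPKM of PTGS1, PTGES, PTGES2 and PTGES3 by group, with 1 point for each library and the mean ± SD of 3 beside them, on axes that start at 0. The 3 knockdown libraries of PTGS1 (6.63 to 8.56 FPKM) lie below all others. The PTGES3 libraries of 5-OH-TMT and of the knockdown lie below those of TNF-α alone, and only the knockdown passed at an adjusted p under 0.05.

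Of the 3 prostaglandin E synthases, PTGES3 and PTGES2 passed 1 test each and PTGES passed none. PTGES (chr9:129738331-129753047, minus strand) was at 340.0, 409 and 334 FPKM in medium and at 373, 382 and 379 under TNF-α. It was at 464, 433 and 436 with 5-OH-TMT and at 455, 384 and 474 after knockdown. All libraries of both latter groups were above all of TNF-α, although knockdown replicate 2 at 383.5 exceeded the highest of TNF-α, 382.3, by little. The log2 fold change was 0.23 with 5-OH-TMT (95% interval 0.03 to 0.44, adjusted p = 0.20, limma) and 0.20 with the knockdown (interval 0.00 to 0.41, adjusted p = 0.16), and neither passed. In a fit of the 2 groups alone the first passed, at an adjusted p of 0.0497. The second passed by voom (0.045), after quantile normalization (0.034) and without knockdown replicate 2 (log2 fold change 0.30, adjusted p = 0.035). TNF-α alone gave 0.07 (interval -0.13 to 0.28, adjusted p = 0.80).

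PTGES3, the cytosolic synthase and co-chaperone (chr12:56663341-56688408, minus strand), was lower in the knockdown. It was at 166, 142 and 166 FPKM in medium, 152, 168 and 167 under TNF-α, 122, 139.8 and 131 with 5-OH-TMT, and 119, 137 and 129 after knockdown. Neither 5-OH-TMT nor the knockdown overlapped TNF-α, and they overlapped each other. The knockdown gave a log2 fold change of -0.34 with an SE of 0.084 (adjusted p = 0.015, limma), a call lost without TNF-α replicate 2 (0.062), TNF-α replicate 3 (0.054) or knockdown replicate 1 (0.072). For 5-OH-TMT it was -0.31 (interval -0.49 to -0.13), with an unadjusted p of 0.0032 that did not pass adjustment (adjusted p = 0.11, limma; 0.051 to 0.19 over the alternatives). The direct comparison of the knockdown with 5-OH-TMT was -0.03 (interval -0.21 to 0.15). Processed pseudogenes copy this gene, and PTGES3P1, at a mean of 18.5 FPKM, held 1.15% to 3.41% of the reads counted on the pair, so a small part of the reads may be assigned to either. The reads of both were also summed and scaled between libraries as the FPKM are, but without division by gene length. The means of these sums were 560 under TNF-α, 454 with 5-OH-TMT and 443 after knockdown.

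PTGES2, the other membrane-bound synthase (chr9:128120693-128128462, minus strand), was at 71.2, 86.3 and 66.2 FPKM in medium and 67.2, 73.7 and 71.0 under TNF-α. It was at 76.2, 80.6 and 72.8 with 5-OH-TMT and 62.9, 58.3 and 64.8 after knockdown, where every library was below every other library of the series. The knockdown was lower than 5-OH-TMT, at a log2 fold change of -0.30 (SE 0.091, adjusted p = 0.044, limma). This call was lost without any 1 of the 6 libraries (0.054 to 0.15), in a fit of all genes above 0 (0.084) and with the replicate block (0.062). Against TNF-α the log2 fold change was -0.19 (adjusted p = 0.18), with 5-OH-TMT 0.12 (adjusted p = 0.50) and with TNF-α alone -0.07 (adjusted p = 0.81).

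Within the summed FPKM of the 3 synthases, the share of PTGES was 60.7% ± 3.00 (SD, n = 3) in medium and 61.9% ± 0.94 under TNF-α. It was 68.2% ± 1.88 with 5-OH-TMT and 69.6% ± 2.91 after knockdown. The libraries of the latter 2 groups, from 66.2% up, all lay above those of TNF-α, from 61.3% to 63.0% (exact permutation p = 0.1 for each, the smallest possible), and they overlapped each other. PTGES was at 28.98 ± 2.78 times the FPKM of PTGS1 in medium, 35.8 ± 1.43 under TNF-α, 39.0 ± 1.64 with 5-OH-TMT and 58.9 ± 4.19 after knockdown. The knockdown did not overlap any other group in this ratio.

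The receptors of prostaglandin E2 were expressed at about 1 FPKM and passed no test. PTGER2 (chr14:52314305-52328606, plus strand) had 111, 95 and 130 reads in medium, 83, 102 and 125 under TNF-α, 113, 99 and 97 with 5-OH-TMT, and 109, 58 and 86 after knockdown. All groups overlapped TNF-α, and the log2 fold changes were -0.19 for TNF-α (adjusted p = 0.77, limma), -0.01 for 5-OH-TMT and -0.34 for the knockdown (interval -0.80 to 0.13, adjusted p = 0.32). PTGER4 (chr5:40679498-40693735, plus strand) had 125, 87 and 91 reads in medium, 186, 114 and 136 under TNF-α, 139, 86 and 124 with 5-OH-TMT, and 153, 159 and 140 after knockdown. In FPKM all TNF-α libraries, from 0.921 to 1.28, were above all of medium, from 0.684 to 0.911, and the log2 fold change was 0.39 (interval -0.02 to 0.81, adjusted p = 0.37). PTGER4 lies wholly within TTC33 on the opposite strand, over 14238 bases. TTC33 was at 1.79 FPKM, and as the counting is not stated to use strand, reads of the pair may not be told apart. With 5-OH-TMT the log2 fold change of PTGER4 was -0.31 (interval -0.73 to 0.11, adjusted p = 0.38), and with the knockdown 0.03.

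**Figure D4:**
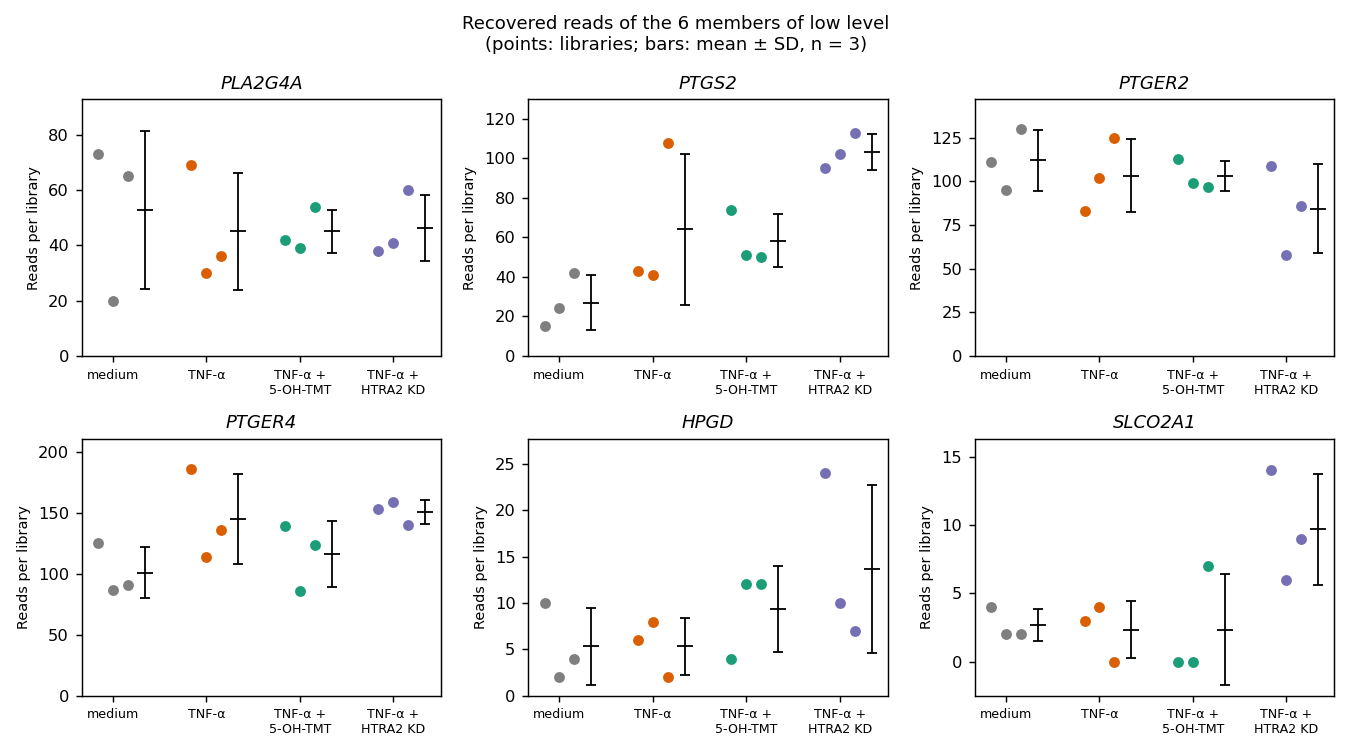
Recovered reads in each library of the 6 genes of low level, by group, with the mean ± SD of 3 libraries beside the points and a scale of its own for each gene. PTGS2 has 95 to 113 reads in the knockdown and 15 to 42 in medium, while PLA2G4A, PTGER2 and HPGD overlap between all groups.

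The genes of removal were barely detected. HPGD, the dehydrogenase that inactivates prostaglandin E2 (chr4:174490177-174523154, minus strand), had 10, 2 and 4 reads in medium, 6, 8 and 2 under TNF-α, 4, 12 and 12 with 5-OH-TMT, and 24, 10 and 7 after knockdown. SLCO2A1, the prostaglandin transporter (chr3:133928145-134052184, minus strand), had 4, 2 and 2 reads in medium, 3, 4 and 0 under TNF-α, 0, 0 and 7 with 5-OH-TMT, and 14, 6 and 9 after knockdown. A count of 0 allows up to 3 reads in a library, a limit that covers counting error only. Several of these values are near that limit, more of them for SLCO2A1 than for HPGD. The knockdown libraries of SLCO2A1 lay above all of TNF-α, with 29 reads in all against 7. In the fit without a filter, where the added 0.1 is larger than the FPKM and shrinks the fold, the log2 fold change was 0.25 (interval -0.0010 to 0.49, adjusted p = 0.25, limma). The ratio of mean FPKM was 3.81, and voom on the reads gave a log2 fold change of 2.21 (adjusted p = 0.18). Against 5-OH-TMT the same fit gave 0.26 (adjusted p = 0.24) and voom 2.98 (adjusted p = 0.039). For HPGD the knockdown gave 0.37 (interval -0.13 to 0.86, adjusted p = 0.45), with a voom value of 1.23 (adjusted p = 0.35), and TNF-α gave 0.0029.

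Around these members, 61 other genes of prostanoid and leukotriene metabolism and of their signalling were listed, of which 45 passed the filter. TNF-α raised 3 of the 45 and lowered none, against 3.22% of all genes raised. AREG, an EGF receptor ligand that cyclic AMP signalling induces, rose from 58.3 ± 0.12 FPKM (SD, n = 3) to 111 ± 12.2, a log2 fold change of 0.92 (adjusted p = 0.00013, limma). AKR1B1, an aldose reductase that can form prostaglandin F2α, rose from 41.8 ± 3.36 to 65.0 ± 3.75 FPKM, by 0.64 (adjusted p = 0.0014). ZFP36L2, which binds AU-rich mRNA and hastens its decay, rose from 24.8 ± 2.16 to 32.6 ± 3.22 FPKM, by 0.39 (adjusted p = 0.033), a call lost in 3 alternatives and without medium replicate 1 or 3 or TNF-α replicate 2 or 3. 5-OH-TMT moved 0 of the 45 at an adjusted p under 0.05, against 0.0387% of all genes, and 8 of the 45 at an unadjusted one, against 20.1%. By voom 1 of the 45 was called, with 236 of the 18079 genes.

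With the knockdown, 10 of the 45 pathway genes passed against TNF-α, 5 higher and 5 lower, beside 9.35% and 8.08% of all genes. ALOX5, the 5-lipoxygenase that opens the leukotriene branch, rose from 1.16 ± 0.11 to 4.46 ± 0.49 FPKM, a log2 fold change of 1.85 (adjusted p = 3.9e-05, limma), and AKR1C3, a prostaglandin F synthase, rose from 1.56 ± 0.25 to 3.28 ± 0.22, by 1.03 on that scale (adjusted p = 0.00045). PER1, a clock gene that cyclic AMP induces, rose by 0.55 (adjusted p = 0.0077) and lay above every TNF-α library. ZFP36L2 fell by 0.48 (adjusted p = 0.0037) and PRXL2B, which reduces prostaglandin H2 to prostaglandin F2α, fell by 0.56 (adjusted p = 0.025). The call of PRXL2B was lost without TNF-α replicate 2 or 3 or knockdown replicate 1 or 2, and in the fit of all genes above 0 (0.051). PTGIS and NR4A1 also rose, and PLA2G12A, AREG and HNRNPD also fell, and these 5 are named after their values were seen. By role, 1 of 8 genes of arachidonate release, 3 of 5 other prostanoid synthases, 0 of 2 other receptors, 0 of 5 genes of export and breakdown, 1 of 10 genes of the lipoxygenase branch, 3 of 8 early genes of cyclic AMP signalling and 2 of 7 proteins that bind AU-rich mRNA passed. No test compared these counts.

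The knockdown differed from 5-OH-TMT in 6 of the 45 pathway genes, or 13.3%, of which 2 were higher and 4 lower, and 15.3% of all genes were called in that comparison. ALOX5 was higher, at a log2 fold change of 1.38 (adjusted p = 0.00045, limma), with 3.90 to 4.74 FPKM in the knockdown and 1.36 to 2.06 with 5-OH-TMT, and AKR1C3 by 0.70 (adjusted p = 0.0075). PRXL2B was lower, at -0.68 (adjusted p = 0.012), a call lost without 5-OH-TMT replicate 1. KHSRP, which promotes decay of AU-rich mRNA, was at -0.44 (adjusted p = 0.042) and the phospholipase PLA2G12A at -0.33 (adjusted p = 0.0498). The call of PLA2G12A was lost without any 1 of the 6 libraries and in 5 of 9 alternatives, with adjusted p up to 0.093. That of KHSRP was lost without any library but knockdown replicate 3 and in 3 of 9 alternatives, with adjusted p up to 0.097. ZFP36L2 was the sixth, at -0.30 (adjusted p = 0.0495), and is named after its values were seen.

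The genes whose log2(FPKM + 0.1) ran most like that of PTGS2 over the 12 libraries, among 11185 genes with a mean of at least 1 FPKM, were HES1 (Pearson r 0.93), DENND1C (0.92), PNRC1 (0.90), PPP4R4 (0.90) and PIM1 (0.90). The 12 points come from 4 groups of 3 libraries, so that r holds the differences between groups as well as those within them. PIM1, a serine/threonine kinase, was at a mean of 46.3 FPKM in medium, 57.0 under TNF-α, 57.5 with 5-OH-TMT and 75.1 after knockdown, and HES1, a transcriptional repressor of the Notch pathway, at 16.1, 19.0, 18.7 and 22.7.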

How the data were processed

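Poly(A)-selected RNA of NCM460 cells was sequenced by the authors, who deposited 1 FPKM value per library for each gene, beside the length of that gene. The submitters' processing notes name CASAVA 1.8, HISAT2 2.0.4, HTSeq 0.9.1 and hg38, with no order; the annotation, the strand setting and the scaling of the FPKM are not given in the sources used here. Coordinates matched GENCODE 29 for 99.98% of genes and for all 10 members. FPKM times gene length came out as whole reads for 100% of values in each library (tolerance 0.05), and each FPKM column was already scaled so that the median of ratios between libraries was 1. Replicates differed by more than counting noise, at chi-squared over degrees of freedom between 7.35 and 45.4. In the knockdown, replicate 2 was at 35.0 against replicate 1 and at 45.4 against replicate 3, while replicates 1 and 3 were at 7.35.

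For 18079 genes whose mean FPKM reached 0.1, log2(FPKM + 0.1) was modelled in limma 3.58.1 (R 4.3.3) by its group means (8 residual degrees of freedom, eBayes with trend, two-sided, Benjamini-Hochberg over all genes), and genes were called at an adjusted p under 0.05. HPGD and SLCO2A1, under the filter, were taken from a fit of all genes above 0. An exact permutation test (SciPy 1.17.1) was added for single values; its smallest p is 0.1. A count of 0 is read as up to 3 reads in the text but entered the fits unchanged as 0, and intervals are at 95%. The fit was tested on simulated data.

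The members, the pathway and marker lists and the tests were chosen with earlier results of these data known. Of the pathway list, the text names at most the 5 genes with the largest change per comparison among those called with a mean of at least 1 FPKM, and exceptions are marked. The genes most like PTGS2 were the 5 of highest Pearson r. Alternatives were pseudocounts of 1 and 0.01, no filter, a mean of at least 1 FPKM, median-of-ratios and quantile scaling, voom on the recovered reads, the 2 groups alone, the fold rule of the study, the replicate number as a block, and leaving out each library. Their use for the named pathway genes was added after seeing the data. Promoter windows came from RefSeq (GRCh38.p14); 9 of the 10 members matched, SLCO2A1 did not, and 3 are printed.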

Additional observations from a re-analysis of the deposited data

How the results depend on the processing

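The 10 genes gave 572 log2 fold changes over the alternatives, of which 510 kept their direction and side of the threshold, 11 lost a call, 5 gained one and 46 changed sign, 37 of these on leaving out 1 library. Rescaling by the median of ratios changed no value, since the deposited columns were already so scaled. No scaling moved the median of all genes by more than 0.04. Of the genes called, PTGS1 kept both calls in every fit, PTGES3 lost its call on leaving out 3 of 6 libraries, and PTGES2 lost its call in 2 alternatives and in all 6 fits without 1 library. The cause of these changes was not tested. Depth limits PTGS2, PLA2G4A, PTGER2 and PTGER4, with 15 to 186 reads in a library, and HPGD and SLCO2A1, with 0 to 24, more than the others, with at least 1385.

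The number of members called was 1 with 5-OH-TMT in the fit of the 2 groups alone. For the knockdown against TNF-α it was 0 by the fold rule and 1 to 3 without 1 library. Against 5-OH-TMT it was 1 without a filter, 1 with the replicate block, 0 by the fold rule and 1 without any 1 library. Of the 45 pathway genes, voom called 5 and the fold rule 0 with TNF-α, and voom and the fit of 2 groups each called 1 with 5-OH-TMT. For the knockdown against TNF-α the count was 6 without a filter, 2 by the fold rule and 6 to 11 without 1 library. Against 5-OH-TMT it was 3 without a filter, 3 with the block, 2 by the fold rule and 2 to 5 without 1 library. The fits without a filter also tested listed genes under it, so their counts are not out of 45. The 13 values of pathway genes named by rule kept their sign in all 195 repeats, and 32 of these lost the call.

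Signs that changed belonged to differences that passed no test. After quantile normalization these were HPGD with TNF-α (-0.026), PTGER2 with 5-OH-TMT (0.0072), PTGER4 (-0.032) and PLA2G4A (-0.050) with the knockdown against TNF-α, and PTGES (0.018), PTGES3 (0.025) and PLA2G4A (-0.086) in the knockdown against 5-OH-TMT. By voom they were HPGD with TNF-α (-0.050) and PTGES in the knockdown against 5-OH-TMT (0.0015). With TNF-α, the range without 1 library was -0.15 to 0.041 for PTGES2, -0.033 to 0.088 for PTGES3, -0.64 to 0.062 for PLA2G4A, -0.10 to 0.13 for HPGD and -0.054 to 0.034 for SLCO2A1. With 5-OH-TMT, the range without 1 library was -0.23 to 0.28 for PTGS2, -0.10 to 0.30 for PLA2G4A, -0.18 to 0.078 for PTGER2 and -0.10 to 0.033 for SLCO2A1. With the knockdown against TNF-α, the range without 1 library was -0.12 to 0.30 for PLA2G4A and -0.048 to 0.17 for PTGER4. With the knockdown against 5-OH-TMT, the range without 1 library was -0.089 to 0.065 for PTGES, -0.082 to 0.022 for PTGES3, -0.16 to 0.11 for PLA2G4A and -0.038 to 0.32 for HPGD.

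Among all genes, the 5-OH-TMT comparison was the least stable, with 7 genes called, 3 with a pseudocount of 1, 4 after quantile normalization, 127 at a mean of at least 1 FPKM, 236 by voom, 911 in the fit of 2 groups and 1 with the replicate block. TNF-α called 742 genes and 392 in the fit of 2 groups. By the fold rule the counts were 494 for TNF-α, 271 for 5-OH-TMT, 764 for the knockdown against TNF-α and 576 against 5-OH-TMT. The replicate numbers of the labels were checked for pairing by the correlation of library deviations. Between TNF-α and medium, same-number pairs were at 0.06 to 0.15, all above the other pairs at -0.18 to 0.041. Between 5-OH-TMT and TNF-α they were at -0.05 to 0.09, with other pairs at -0.11 to 0.073. Between the knockdown and TNF-α they were at -0.21 to 0.11, with other pairs at -0.14 to 0.27. Between the knockdown and 5-OH-TMT they were at -0.10 to 0.12, with other pairs at -0.21 to 0.14. With 3 libraries in each group, these values cannot settle whether libraries of the same number were paired. With the replicate block the adjusted p of PTGES2 in the knockdown against 5-OH-TMT was 0.062, and no other call among the 10 genes changed. The count over all genes went from 742 to 600, 3152 to 2660 and 2762 to 2062 in the TNF-α and both knockdown comparisons. Every library correlated best with its own number only for TNF-α against medium (3 of 3).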
